A study of Arabidopsis thaliana with 12 samples.

Results

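A set of 62 genes was studied whose mean deposited level was at least 4-fold higher in wounded than in intact rosettes of Arabidopsis thaliana, in the light and in the dark, and differed by at most 2-fold between light and dark. They were taken from 13350 genes that had a microarray probe set assigned to a single gene, the probe set with the highest mean standing for genes with several. The rule used group means on the log2 scale: wounded minus intact at least 2 in the light and at least 2 in the dark, and light minus dark between -1 and 1 in both intact and wounded rosettes. It was met by 70 genes, of which 8 were left out by name, since the rule sets aside symbols that begin with PUB, CML, WRKY, IQD, GLR or BZIP and some single genes such as STZ. It works by symbol and not by family, so AT3G01830, which is also known as CML40, stayed in under its locus code. The genes were thus chosen by the group means of all 12 arrays, and their wound changes and mean light differences are given as a description. All 62 are annotated as protein-coding.

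The study measured whole rosettes on 12 Affymetrix arrays, in 3 replicate experiments that each held 4 treatments, so that each group had 3 arrays. Light intact plants stood for 30 min and then for a further 60 min at 22 °C at a photon flux of 250 µmol m-2 s-1. Light wounded plants were crushed with a haemostat after those 30 min and collected 60 min later. Dark intact and dark wounded plants were handled on the same schedule with no light, the wounds being made under a safelight. Dark wounded replicate 2 carries an abbreviation in place of a treatment description and took its group from its title. The labels name no strain, mutation, transgene or age for any group, and each array carried 1 RNA extract pooled from 15 to 17 plants. Wounded rosettes held crushed and uncrushed leaf tissue together, and in such bulk samples fewer cells of a type and less RNA per cell cannot be told apart. None of the groups analysed here precedes the move into light or dark, so higher in the dark cannot be told from lower in the light.

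Crushing a leaf releases signals, among them calcium, reactive oxygen and cell wall fragments, that within minutes switch on a shared set of early genes, many of them for transcription factors, calcium sensors and ubiquitin ligases. Jasmonate, a hormone made from chloroplast lipids, extends the response to defence genes and their enzymes. Many early genes also respond to touch, cold or pathogen molecules, and many of them have transcripts of short life, so that their level follows recent synthesis closely. The roles given below for genes with no symbol in the annotation are general background on those loci.

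The deposited values are log2 levels, with array medians over all probe sets between 5.40 and 5.60. Of 22810 probe sets 13567 reached log2 4 on at least 3 arrays and were tested, the 62 genes among them. Dim genes passed through their wounded groups: the mean was below log2 4 in intact rosettes for 16 of the 62 in the light and for 12 in the dark, and for none in wounded rosettes. Below log2 4 a level is only a bound. Where an intact mean was below it, a fold change is given as at least so many fold, with each dim array set to log2 4. Medians, ranges and counts over the 62 genes use the deposited values, dim ones included. The main ones are also given for the 46 genes with intact means of at least log2 4 in light and dark, a split made after seeing the data. Rubisco activase (RCA), a leaf mesophyll marker, changed by 0.01 on wounding in the light and by -0.04 in the dark, and was the 1 named probe set of 3 listed mesophyll genes. The 1 named root marker of 3 (PYK10) changed by 0.22 and 0.32, and the guard cell gene FAMA, the 1 named of 5 guard cell, trichome and phloem markers, by 0.22 and -0.27. None of these changes passed limma's test. No listed flower or shoot apex marker had a named probe set. Dark intact replicate 1 stood apart from the other dark intact arrays in the 62 genes, and the results that rest on it are given with and without it further on.

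Wounding raised the 62 genes by a median of 3.05 in the light and 2.65 in the dark (log2), against medians of -0.15 and -0.08 over all tested probe sets. For the 46 brighter genes the medians were 2.88 and 2.61. The changes of all 62 ran from 2.03 to 6.81 in the light and from 2.01 to 5.82 in the dark. All 62 passed limma's test in the higher direction in both (adjusted p under 0.05), as did 8.48% of tested probe sets in the light and 5.84% in the dark. The wounded arrays lay above every intact array for all 62, which held for 13.4% of tested probe sets in the light and 10.2% in the dark. The rule used these contrasts, so nothing is read from the counts. Without dark intact replicate 1 the median change in the dark was 2.27 and 61 of the 62 were called, all higher, where 3.91% of tested probe sets were. By experiment, each of the 62 was higher by at least 1 in all 6 comparisons of a wounded with its intact array, and 27 by at least 2 in all 6. The smallest single rise was 1.13, in the dark in experiment 2.

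**Figure D1:**
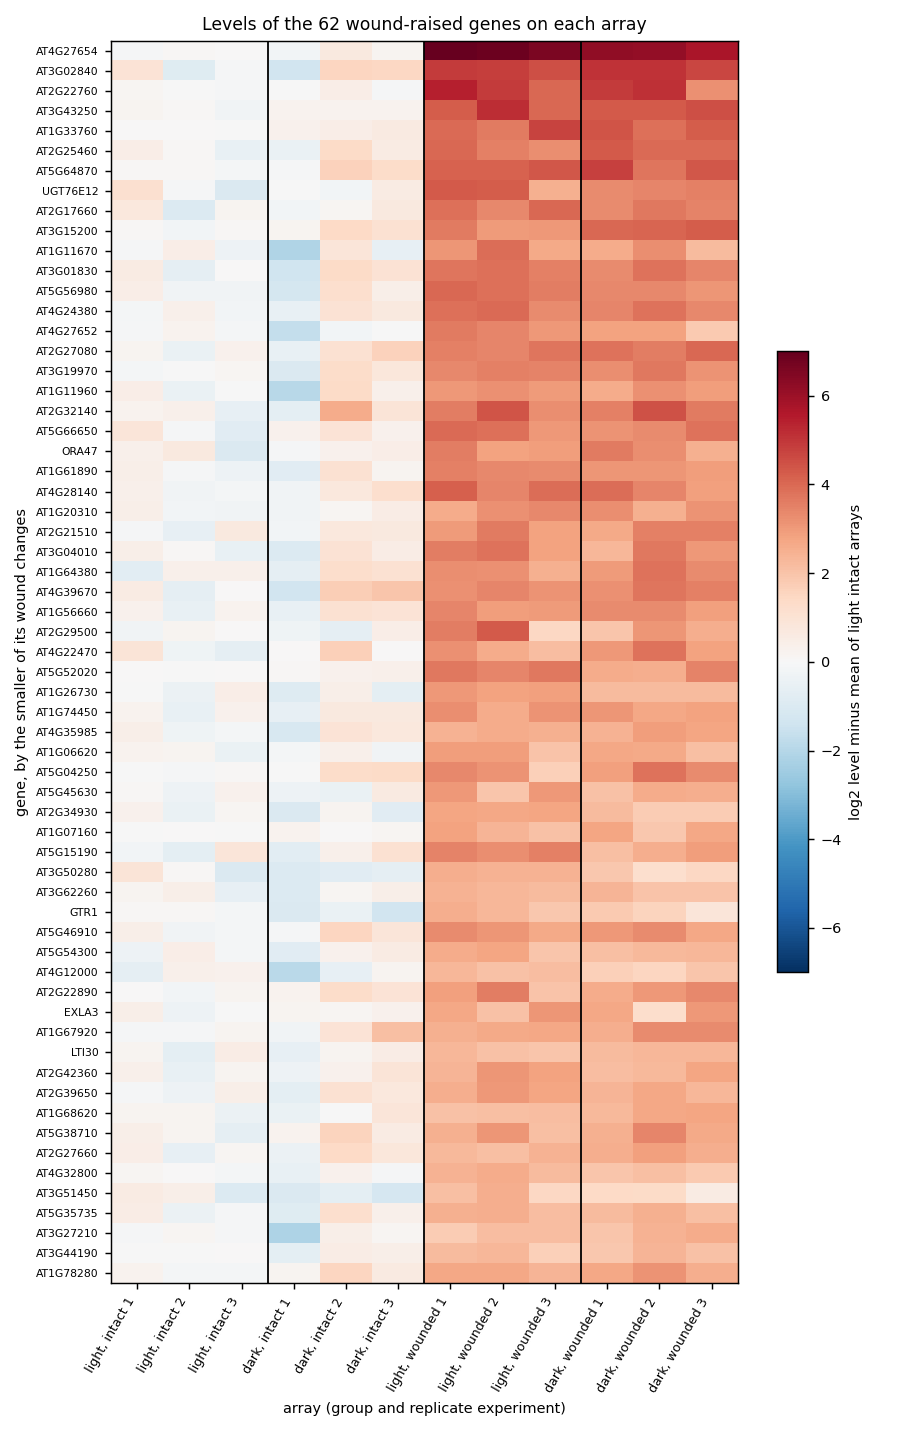
Each row is 1 of the 62 genes, ordered by the smaller of its 2 wound changes, and each column is 1 of the 12 arrays. Colour gives the log2 level minus the mean of the light intact arrays, and the 6 wounded arrays are red for every gene, while dark intact replicate 1 is bluer than the other 2 dark intact arrays in most rows.

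AT4G27654, a small gene with no role given here, had the widest change. Its log2 levels were 3.20, 3.34 and 3.28 on the light intact arrays and 10.26, 10.11 and 9.87 on the light wounded arrays. In the dark they were 3.05, 3.96 and 3.45 intact and 9.49, 9.43 and 8.99 wounded. Intact levels were all below log2 4, and the rises were at least 67.7-fold in the light and at least 39.5-fold in the dark. All light wounded arrays stood above all dark wounded ones, a difference of 0.78. Its neighbour on chromosome 4, AT4G27652, with no protein-coding gene between them in the TAIR10.1 annotation, rose by 3.36 in the light and 3.13 in the dark. AT4G27657, the next gene on the other side, met both wound thresholds but stood 1.30 higher in the light in wounded rosettes and so fell outside. AT4G27652 and AT4G27654 were the only 2 of the 62 that lay within 5 protein-coding genes of each other.

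Transcription factors made up 7 of the 62. Their wound changes had a median of 3.60 in the light and 2.85 in the dark, and 3 of the 7 had dim intact levels. AT2G22760 is a basic helix-loop-helix factor. It stood at 2.49, 2.29 and 2.24 (log2) in the light and 2.33, 2.78 and 2.25 in the dark in intact rosettes, and at 7.76, 7.24 and 6.33 and 7.23, 7.46 and 5.53 in wounded ones. This is a rise of at least 8.64-fold in the light and at least 6.67-fold in the dark. In both light conditions wounded replicate 3 was the lowest wounded array.

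The other 6 factors belong to the ERF family, whose members bind GCC-type and dehydration-type elements in promoters. AT1G33760 read 2.34, 2.33 and 2.31 in light intact and 6.32, 5.96 and 7.04 in light wounded rosettes. In the dark it read 2.65, 2.81 and 2.94 and 6.71, 6.21 and 6.54, so that wounded arrays of light and dark overlapped. It rose at least 5.41-fold in the light and at least 5.6-fold in the dark. ORA47, a regulator of genes of jasmonate synthesis, rose from 7.08 ± 0.90 to 10.16 ± 0.42 in the light and from 7.31 ± 0.29 to 10.20 ± 0.59 in the dark (SD, n = 3). Its light minus dark difference was -0.24 in intact and -0.04 in wounded rosettes. AT4G28140, with intact means above log2 4, rose by 3.83 in the light and 2.85 in the dark. Its intact arrays read 4.74, 4.12 and 4.23 in the light and 4.10, 5.09 and 5.53 in the dark, and its wounded arrays 8.57, 7.76 and 8.26 and 8.25, 7.78 and 7.25. AT1G64380 rose by 2.98 in the light and 2.81 in the dark, and AT4G32800 by 2.42 and 2.05. AT5G52020, dim in intact rosettes, rose at least 7.82-fold in the light and at least 4.74-fold in the dark.

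**Figure D2:**
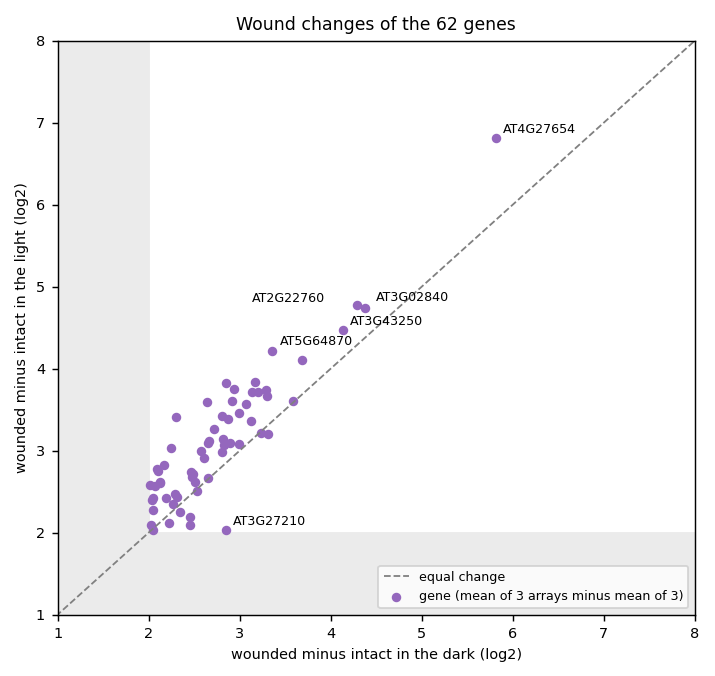
Each point is 1 of the 62 genes, with its wound change in the dark on the x axis and in the light on the y axis, both log2 differences between means of 3 arrays. Grey bands lie below the threshold of 2, the dashed line marks equal change, and 53 points lie above it, 38 of them among the 46 genes whose intact means were at least log2 4.

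Genes of calcium and of the plasma membrane came next. AT3G01830, which encodes a calmodulin-like calcium sensor, read 9.38, 8.18 and 8.80 in light intact and 12.51, 12.66 and 12.32 in light wounded rosettes. In the dark the intact arrays read 7.40, 10.13 and 9.82 and the wounded arrays 12.12, 12.60 and 12.22. Wounded levels overlapped between light and dark, while dark intact replicate 1 was more than 2 log2 units below the other dark intact arrays. AT1G11960, of the OSCA family of calcium channels opened by osmotic or mechanical force, rose by 3.08 in the light and 2.99 in the dark. Its dark intact arrays read 4.63, 7.87 and 6.90, again with replicate 1 lowest. AT5G66650, a calcium uniporter of organelles, rose by 3.60 and 2.91.

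AT5G64870 encodes a flotillin, a scaffold protein of membrane microdomains. It read 3.52, 3.48 and 3.26 in light intact and 7.56, 7.57 and 7.78 in light wounded rosettes, a rise of at least 12.4-fold. In the dark its arrays read 3.36, 5.01 and 4.71 intact and 8.20, 7.16 and 7.79 wounded. Dark intact replicate 1 was level with the light intact arrays and replicates 2 and 3 were above them.

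Transporters formed a group of 4, and all 4 still met the rule when dark intact replicate 1 was left out. GTR1 carries glucosinolates, the defence compounds of the cabbage family, and can also carry jasmonate forms. It read 10.16, 10.18 and 9.97 in light intact and 12.63, 12.44 and 11.99 in light wounded rosettes, against 9.07, 9.62 and 8.75 and 11.91, 11.64 and 10.93 in the dark. Light exceeded dark in every experiment, by 1.09, 0.56 and 1.22 in intact and 0.72, 0.80 and 1.06 in wounded rosettes, so the gene sits at the edge of the set. AT1G61890 and AT1G11670 encode MATE efflux carriers. AT1G61890 rose by 3.39 in the light and 2.87 in the dark, to 13.51 ± 0.12 and 13.15 ± 0.10. AT1G11670 rose by 3.21 and 3.31, with dark intact arrays at 4.11, 7.04 and 5.64. AT1G26730, related to phosphate exporters, rose at least 5.3-fold and at least 3.28-fold from dim intact levels.

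Enzymes numbered 7, with median wound changes of 2.46 in the light and 2.29 in the dark. UGT76E12, a glycosyltransferase, adds a sugar to small molecules. It read 5.49, 4.30 and 3.36 in light intact and 8.67, 8.61 and 6.84 in light wounded rosettes, and 4.37, 4.17 and 4.98 and 7.72, 7.81 and 7.89 in the dark. Light arrays varied more than dark ones, and replicate 3 was the lowest in both light groups. AT3G51450, of the strictosidine synthase-like family, stood near the upper light threshold in intact and wounded rosettes. It read 10.81, 10.65 and 9.30 and 12.39, 12.78 and 11.70 in light intact and light wounded rosettes, and 9.25, 9.59 and 9.06 and 11.64, 11.57 and 10.84 in the dark. AT3G50280, an acyltransferase of the BAHD family, was also higher in the light by its means, by 0.80 in intact and 0.97 in wounded rosettes. In intact rosettes its difference by experiment was 1.89, 0.88 and -0.37.

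AT5G38710, a proline dehydrogenase of mitochondria, rose by 2.57 in the light and 2.07 in the dark, with a light minus dark difference of -0.79 in intact rosettes. AT1G68620, a carboxylesterase, was among the 9 genes with the larger wound change in the dark, 2.45 against 2.10. Its dark wounded arrays (8.57, 8.99 and 9.10) lay above its light wounded ones (8.38, 8.39 and 8.44). AT1G06620, an oxoglutarate-dependent oxygenase, and AT3G44190, an FAD-dependent oxidoreductase, lay within 1 of the dark level in every experiment. Their light minus dark means were 0.02 and -0.08 in intact and 0.12 and -0.02 in wounded rosettes.

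Signalling and protein turnover were represented by 6 genes. Their wound changes had a median of 2.73 in the light and 2.39 in the dark, and 2 of the 6 met the rule without dark intact replicate 1. AT2G32140, with the TIR domain of immune receptors, read 5.99, 6.07 and 5.13 in light intact and 9.29, 10.15 and 9.00 in light wounded rosettes. In the dark it read 5.06, 8.32 and 6.64 and 9.29, 10.20 and 9.35, so that the dark intact arrays spanned more than 3 log2 units. AT5G04250, an OTU-type deubiquitinating protease, read 3.35, 4.68 and 4.72 in dark intact rosettes against 3.39, 3.33 and 3.49 in light intact ones. AT3G62260, a protein phosphatase of type 2C, had an intact light difference of 0.14. AT1G07160, of the same family, was below log2 4 on all intact arrays and read 5.14, 4.68 and 4.37 in light wounded and 5.08, 4.17 and 5.00 in dark wounded rosettes. AT2G42360, a RING ubiquitin ligase, rose by 2.75 in the light and 2.10 in the dark, and AT2G34930, a leucine-rich repeat protein, by 2.74 and 2.47.

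The chromatin and RNA group had 3 members, and none of them met the rule without dark intact replicate 1. AT3G15200, a pentatricopeptide repeat protein of a family that acts on organelle RNA, had the lowest light minus dark difference in wounded rosettes, -0.91. It read 3.08, 2.82 and 3.06 in light intact and 6.61, 5.95 and 6.04 in light wounded rosettes, and 3.16, 4.40 and 4.08 and 7.03, 7.05 and 7.25 in the dark. Every dark array lay above every light array of the same wound state, but both intact means were below log2 4. The rise was at least 4.61-fold in the light and at least 7.73-fold in the dark. The JmjC genes AT5G46910, a histone demethylase, and AT1G78280 rose by 3.03 and 2.58 in the light and by 2.25 and 2.01 in the dark.

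Of cell wall genes, EXLA3, an expansin-like protein, rose at least 3.58-fold in the light and at least 2.97-fold in the dark. AT3G04010, a glycosyl hydrolase of the glucanase kind, rose by 3.42 and 2.81. LTI30 is a dehydrin, a protein that protects membranes in cold and drought. It read 10.11, 9.22 and 10.44 in light intact and 12.25, 11.99 and 11.89 in light wounded rosettes, and 9.36, 10.09 and 10.43 and 12.11, 12.23 and 12.22 in the dark. Wounded arrays of light and dark lay within the same range. AT2G29500, a small heat shock protein, read 8.12, 8.80 and 5.95 on the light wounded arrays, with replicate 3 far below the others, and 6.44, 7.62 and 7.05 on the dark wounded ones. AT2G27080, a glycoprotein of the late embryogenesis abundant kind, rose by 3.57 and 3.07. AT2G21510, a DnaJ co-chaperone, rose at least 2.83-fold and at least 3.02-fold.

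A further 25 genes were placed in none of these role groups, AT4G27654 among them. AT3G02840, an armadillo repeat protein, read 6.96, 5.16 and 5.91 in light intact and 10.91, 10.83 and 10.52 in light wounded rosettes. In the dark it read 4.69, 7.53 and 7.48 and 11.07, 11.08 and 10.69, so that its wounded levels were close and its intact levels scattered. AT3G43250 was steadier in the dark, with 3.42, 3.41 and 3.43 intact and 7.48, 7.49 and 7.69 wounded. Its light arrays read 3.35, 3.28 and 2.93 and 7.41, 8.36 and 7.19, where wounded replicate 2 was the highest. It rose at least 12.6-fold in the light and at least 11.7-fold in the dark. AT2G25460 read 3.35, 3.01 and 2.36 and 6.94, 6.44 and 6.17 in light intact and wounded rosettes, and 2.46, 4.26 and 3.45 and 7.21, 6.88 and 6.85 in the dark. It rose at least 5.72-fold in the light and at least 7.43-fold in the dark. AT2G17660 read 5.52, 3.80 and 4.97 and 8.61, 8.12 and 8.79 in the light, and 4.55, 4.90 and 5.44 and 8.09, 8.43 and 8.22 in the dark. Its wounded arrays overlapped between light and dark. The changes of all 25 ran from 2.03 to 6.81 in the light and from 2.03 to 5.82 in the dark.

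AT5G15190 rose at least 8.74-fold in the light, from an intact mean just below log2 4. In the dark it rose by 2.30 (log2) from an intact mean of 4.21, with dark intact replicate 1 below log2 4. Its light wounded arrays (7.48, 7.23 and 7.5) lay above its dark wounded ones (6.12, 6.50 and 6.90), while its intact arrays overlapped (3.82, 3.32 and 4.83 in the light and 3.23, 4.34 and 5.06 in the dark). AT3G27210 changed less in the light than in the dark by its means, with 2.03 in the light and 2.84 in the dark. It read 4.64, 7.20 and 6.91 on the dark intact arrays, where replicate 1 was the low one, and 6.70, 6.92 and 6.73 on the light intact arrays. AT4G12000 also changed more in the dark by its means, 2.45 against 2.19, with dark intact arrays at 6.0, 7.30 and 8.08. Without dark intact replicate 1 the change in the dark was 2.04 for AT3G27210, close to its change in the light. For AT4G12000 it was then 1.89, below its change in the light.

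**Figure D3:**
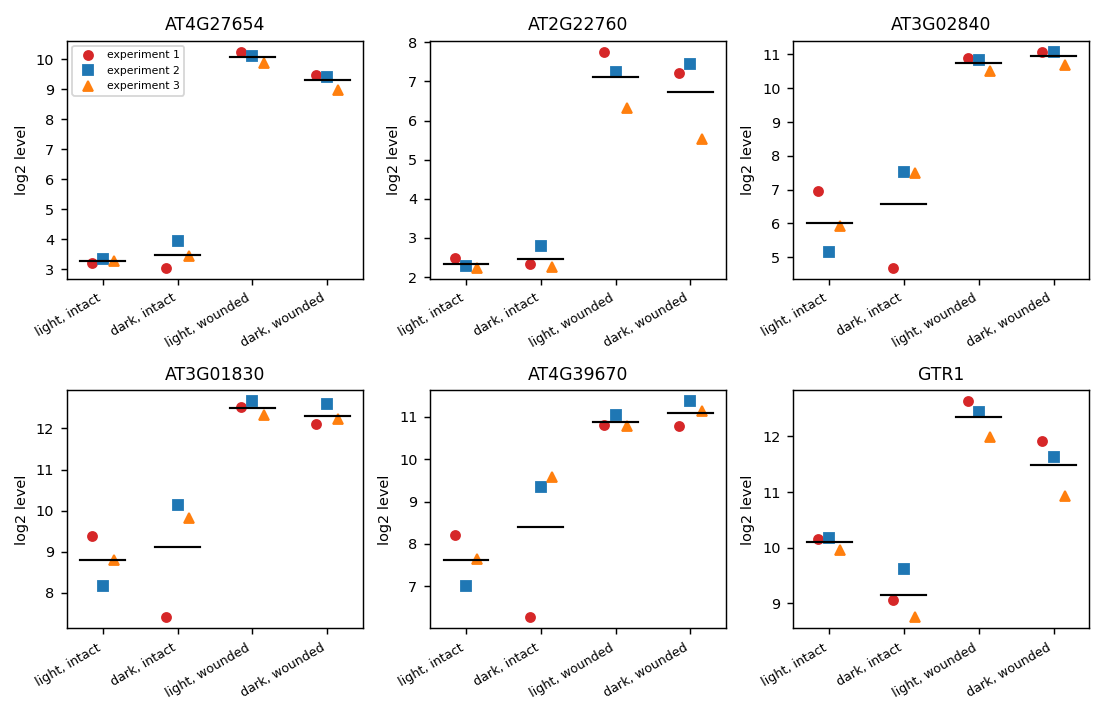
Log2 levels of 6 of the genes on each array, by group on the x axis, with symbol and colour for the replicate experiment and a line at the mean of 3 arrays. In AT3G02840, AT3G01830 and AT4G39670 the dark intact array of experiment 1 lies more than 2 units below those of experiments 2 and 3, while GTR1 is higher in the light in each experiment.

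Light and dark differed by less than 1 in the mean of each gene by construction, but the 3 experiments did not give this alike in intact rosettes. The median light minus dark difference of the 62 genes was 0.69 in experiment 1, -0.90 in experiment 2 and -0.62 in experiment 3. For the 46 brighter genes it was 0.85, -0.96 and -0.66. The difference was above 0 for 55 of the 62 in experiment 1, for 13 in experiment 2 and for 7 in experiment 3, against 52.0%, 55.9% and 55.9% of tested probe sets. For 39 of the 62 (62.9%) it was above 0 in experiment 1 and below 0 in experiments 2 and 3, a pattern seen in 5.48% of all tested probe sets and in 30 of the 46. The difference had 1 sign in all 3 experiments for 9 of the 62 and for 61.4% of tested probe sets. The rule bounded the mean of these 3 differences, which favours mixed signs, so these counts are a description. The light minus dark difference in intact rosettes also passed 1 in single experiments. It was below -1 for 28 genes in experiment 2 and 18 in experiment 3 (10.1% and 7.39% of tested probe sets). In experiment 1 it was at least 1 for 19 genes (6.87%). The label of indifference to light thus holds for the mean over experiments and not for intact rosettes within each of them.

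In wounded rosettes the experiments were closer. Median differences were 0.28, 0.10 and 0.01, and between 54 and 58 of the 62 genes lay within 1 in any experiment, where between 88.0% and 92.0% of tested probe sets did. Every light and dark comparison, intact and wounded, lay within 1 in all 3 experiments for 16 genes. Of these, AT1G07160, AT1G20310, AT1G33760, AT2G22760, AT3G43250, EXLA3 and AT4G27654 had intact means below log2 4 in light and dark, so their small intact difference carries no information. The other 9 were AT1G06620, AT1G64380, AT2G42360, AT3G44190, LTI30, AT4G24380, AT4G32800, AT5G45630 and AT5G54300. All 16 were named after their values were seen.

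**Figure D4:**
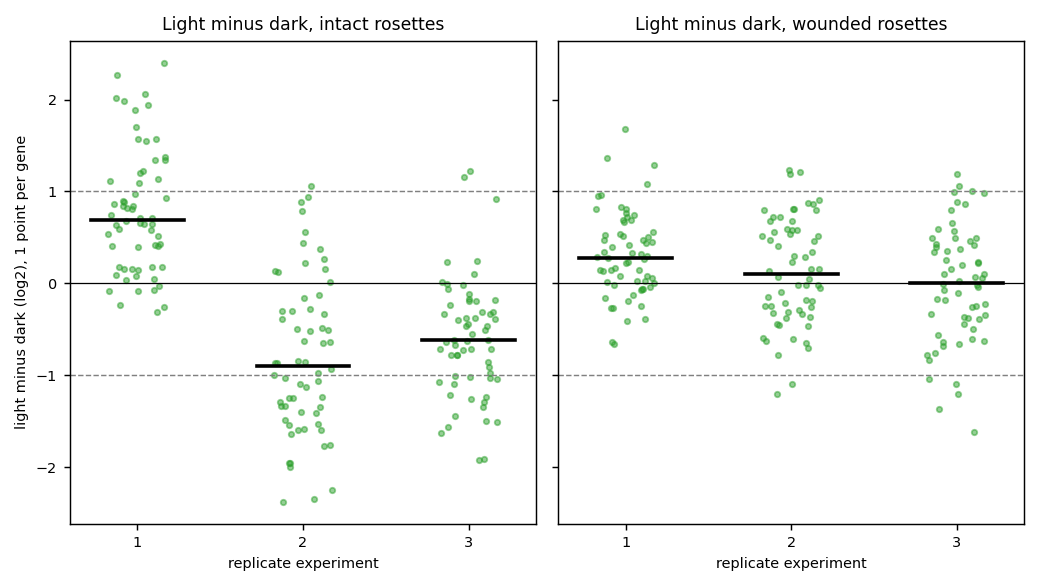
Light minus dark difference (log2) of each of the 62 genes in each replicate experiment, in intact rosettes on the left and wounded rosettes on the right, with small sideways offsets. Black bars are medians over the genes and dashed lines mark -1 and 1. In intact rosettes the median is 0.69 in experiment 1 and -0.90 and -0.62 in experiments 2 and 3.

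Dark intact replicate 1 was the array in which the 62 genes stood lowest. The median log2 level of the 62 genes was 5.24 on it and 6.85 and 6.71 on dark intact replicates 2 and 3, while the light intact arrays had 6.54, 6.19 and 5.88. The medians of all tested probe sets lay between 7.74 and 7.78 on every array. Replicate 1 was the lowest dark intact array for 50 of the 62 genes and for 28.3% of tested probe sets. The rule used the dark intact mean, and a low array there helps a gene to reach the wound threshold in the dark. The count is thus a description. In light intact rosettes replicate 1 was the highest array for 35 of the 62 and for 32.7% of tested probe sets. The median SD of the 62 genes was 0.72 in dark intact rosettes, 0.40 in light intact, 0.33 in light wounded and 0.29 in dark wounded rosettes, against 0.27, 0.21, 0.19 and 0.24 over all tested probe sets. Replicates spanned more than 2 log2 units in at least 1 group for 16 genes. The array's control for 25S ribosomal RNA, a single probe set, read 9.37, 10.67 and 8.82 in dark intact rosettes and 8.39, 6.87 and 7.46 in dark wounded ones, against means of 7.27 and 7.36 in the light groups. With that control as a covariate limma called 36 of the 62 genes higher on wounding in the dark, where 1.58% of tested probe sets were called. The median change of the 62 in that fit was 2.86, against 2.65 without the covariate.

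AT4G39670, a glycolipid transfer protein, had the largest spread. Its dark intact arrays read 6.26, 9.34 and 9.58 and its light intact arrays 8.20, 7.0 and 7.65, so that the light minus dark difference was 1.94, -2.35 and -1.93 by experiment. In wounded rosettes it read 10.81, 11.04 and 10.78 in the light and 10.79, 11.37 and 11.15 in the dark. AT3G19970 read 6.12, 8.41 and 7.92 in dark intact rosettes, AT4G35985 7.02, 9.09 and 8.88, and AT5G56980 7.03, 9.44 and 8.67. AT1G67920 read 6.88, 8.10 and 9.23, with replicate 3 as its highest array, and AT5G35735, a membrane cytochrome of the b561 kind, read 9.81, 11.84 and 11.02. In each of these, replicate 1 was the lowest.

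Without dark intact replicate 1, 34 of the 62 genes still met the rule. The light difference in intact rosettes then lay below -1 for 17 genes and above 1 for none, and 18 genes no longer reached a wound change of 2 in the dark, 7 of them on both counts. The mean light difference moved from -0.78 to -1.84 for AT4G39670, from -0.94 to -1.74 for AT2G32140, from -0.56 to -1.5 for AT3G02840 and from -0.33 to -1.19 for AT3G01830. With all arrays, limma called 2 of the 62 genes for light in intact rosettes, GTR1 higher and AT3G15200 lower in the light, while it called 23.2% of tested probe sets. The intact means of AT3G15200 were both below log2 4. Without that array it called 17 of the 62, all lower in the light, where 11.6% of tested probe sets were called lower. As the rule used these means, the counts are a description.

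**Figure D5:**
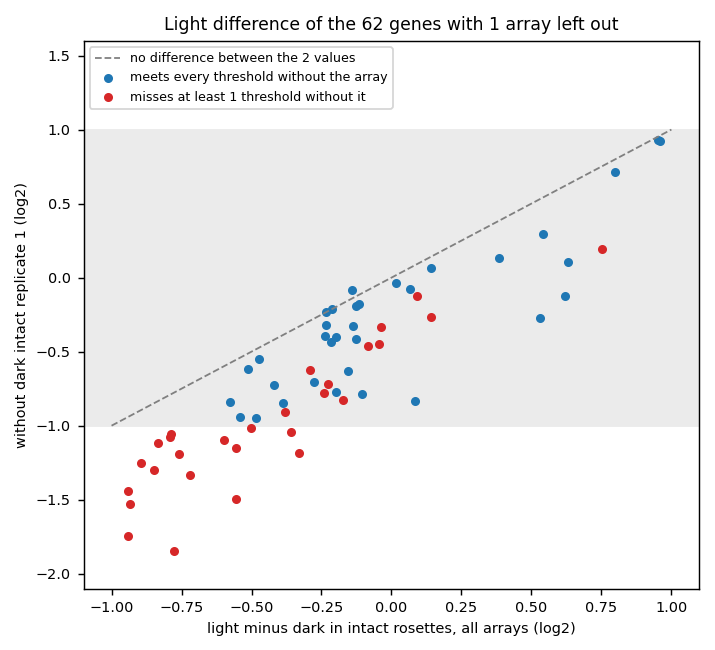
Light minus dark difference in intact rosettes (log2) of the 62 genes from all 6 intact arrays on the x axis and without dark intact replicate 1 on the y axis. The grey band holds values between -1 and 1 and the dashed line marks equal values. Of the 62 points 17 lie below the band, and the 34 blue points are the genes that still met the whole rule.

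Genes were also chosen by the same thresholds on group means of 2 experiments and read in the remaining one. The choice was not fully apart from the experiment left out, since the probe set of each gene was picked by its mean over all 12 arrays. The genes left out by name were set with earlier results known. The comparison genes had passed the filter on dim probe sets over all 12 arrays, which the chosen genes did not have to pass. From experiments 1 and 3, 71 genes were chosen. In experiment 2 the wound change of 67 of them was at least 2 in the light and that of 41 in the dark, compared with 3.74% and 1.43% of all 7196 genes tested. Only 30 of the 71 had an intact light difference within 1 there, whereas 80.0% of all genes did, and 65 of the 71 lay within 1 in wounded rosettes (88.0% of all genes). From experiments 1 and 2, 72 genes were chosen, of which 63 and 43 reached 2 in experiment 3 and 41 lay within 1 in intact rosettes (85.7% of all genes). From experiments 2 and 3, 34 genes were chosen, 28 of them shared with the 62. In experiment 1, 30 and 31 of these 34 reached 2, and 23 lay within 1 in intact rosettes (87.4% of all genes), with a median light difference of 0.62. In the experiment left out, the wound change reached 2 for 41 to 67 of 71, 43 to 63 of 72 and 30 to 31 of 34 genes. In intact rosettes the share within 1 of the dark level was below that of all genes each time. No comparison was made with genes of like spread. The 62 genes had a median SE of 0.39 for this difference, against 0.21 over all tested probe sets.

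The wound change was larger in the light than in the dark for 53 of the 62 genes by their means, with a median gap of 0.37 against -0.06 over all tested probe sets. It was larger for 38 of the 46 brighter genes. The rule used the group means that make up this gap, so these values are a description. The median gap of the 62 was 0.67 without dark intact replicate 1, 0.15 without replicate 2, 0.19 without replicate 3 and 0.09 with the 25S covariate. By experiment the median gap was -0.45, 1.01 and 0.61. It was above 0 for 15, 57 and 50 of the 62 genes, against 45.7%, 39.9% and 44.5% of tested probe sets. limma called the gap (the interaction of wounding and light) for none of the 62 and for 0.0147% of tested probe sets. For light in wounded rosettes it called 1 gene, AT4G27654, higher in the light, and 12.3% of tested probe sets. The arrays of light and dark did not overlap for 6 of the 62 genes in intact rosettes (38.2% of tested probe sets) and for 15 in wounded ones (33.5%). A fit that blocked on the replicate experiment called all 62 higher on wounding in the light (11.5% of tested probe sets) and in the dark (9.08%). It called 5 of the 62 for light in intact rosettes (40.7%) and 5 in wounded ones (28.9%).

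Just inside the wound threshold in the light were AT3G27210 at 2.03 and AT3G51450 at 2.03, and just outside were AT2G47550 at 1.94 and AT1G77640 at 1.70. In the dark AT1G78280 at 2.01 and AT3G44190 at 2.02 were inside, and AT4G18950 at 1.99 and AT1G75860 at 1.93 outside. On the dark side of the intact light threshold AT5G64870 and AT2G32140, both at -0.94, were inside, and AT1G66090 at -1.10 and AT2G32190 at -1.13 outside. On its light side GTR1 at 0.96 and AT3G51450 at 0.95 were inside, and IRX15-L at 1.08 and AT1G11210 at 1.24 outside. In wounded rosettes AT3G50280 at 0.97 was inside and AT4G27657 at 1.30 outside, and below them AT3G15200 at -0.91 was inside and AT4G24110 at -1.77 outside.

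Wound changes of at least 2 in both light conditions were found in 120 genes, of which 50 fell outside the light thresholds. Among the 50, 22 were higher in the dark in intact rosettes alone and 3 higher in the light there alone, 7 and 1 were higher in the light or in the dark in wounded rosettes alone, and 17 passed 1 in both states. Their median intact light difference was 0.12, -1.86 and -1.75 by experiment, against 0.69, -0.90 and -0.62 in the 62. Both sets thus stood higher in experiment 1 than in experiments 2 and 3. No test was made of the difference, since the rule separates the sets on this measure.

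Over all tested probe sets, limma called 8.48% higher and 6.37% lower on wounding in the light, 5.84% and 2.28% in the dark, and 12.3% higher and 10.9% lower in the light in intact rosettes. Of 38 listed genes of the rapid general stress response 13 were tested and all 13 rose in light and dark, with median changes of 3.48 and 2.99. The 62 genes hold 3 of them, AT4G27652, AT4G27654 and AT2G27660. STZ, CML37 and DTX50 also met every threshold of the rule and were left out by name. Of the 13, 6 were lower in the light in intact rosettes. Of 28 jasmonate genes 7 were tested. In the light 3 of them rose and 1 fell, MYC4 with a change of -1.32, and in the dark 3 rose and none fell. Of the 7, AT2G38240 met every threshold of the rule and was left out by name. Among 9 tested genes of early immunity 4 rose and 1 fell in the light, and 2 rose in the dark. Of 3 tested touch genes 2 rose in each condition, AT3G01830 of the 62 and CML23 (1.32 in the light and 0.96 in the dark). Among 5 tested genes of light response and energy none rose on wounding and 1 fell, BIC2 with a change of -1.52 in the dark. In intact rosettes 4 of these 5 were higher and 1 lower in the light. These lists were chosen with results of these arrays known.

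The rule did not use gene structure. The span of the 62 genes in the TAIR10.1 annotation had a median of 1754 bases, against 2322 for 7176 tested genes, and 40 of the 62 were below that median. A single transcript is annotated for 39 of them (62.9%), against 51.0% of tested genes. Chromosomes 1 to 5 held 15, 12, 15, 9 and 11 of them. No gene of the set had another single-gene probe set, so each rests on 1 probe set.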

How the data were processed

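Transcripts were measured in 12 rosette samples with 1 biotin-labelled extract per array. The deposited values are on the log2 scale and were made with GCRMA per the submitters' processing notes, with no version given. The platform annotation gave 1 gene to 13513 probe sets, several to 503 and none to 8730. Another 66 probe sets with no named gene and 5 with several met the thresholds and are not described. The genes and lists were chosen with earlier results of these data known.

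A linear model with a mean for each group was fitted to the 12 arrays with limma 3.58.1 (R 4.3.3), with empirical Bayes moderation and Benjamini-Hochberg adjustment over 13567 probe sets (64 controls left out). The fit was tested on simulated data with independent arrays and 1 SD per probe set. That test does not cover arrays that vary together or a spread that differs between groups. Arrays of 1 replicate number deviated together from their group means (r from 0.30 to 0.76 over 18 pairs), and the series text says that each replicate experiment held all 4 treatments, so the numbers pair the arrays. The main fit did not use this pairing. It also took 1 spread per probe set over all 4 groups, of which dark intact arrays varied most in the 62 genes (median SD 0.72). With the replicate block, 5 of the 62 were called for light in intact and 5 in wounded rosettes (40.7% and 28.9% of tested probe sets). The main fit called 2 and 1 (23.2% and 12.3%). Genes were named by role group and by a rule that takes the 12 genes whose smaller wound change was largest, the 3 brightest, the 3 at each end of the light difference and of the interaction, and those spanning over 2 in a group. Promoter motifs were planned and are not analysed here. Precision is limited by having 3 arrays in a group. In the main fit the changes of the 62 genes had a median SE of 0.39, against 0.21 over all tested probe sets. Each p-value of that fit rests on the spread between extracts of a group, moderated over probe sets. That spread holds shifts between the replicate experiments.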

Additional observations from a re-analysis of the deposited data

Results flagged for a closer look

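AT5G52020, an ERF family factor, read lower in the light in intact rosettes and higher in the light in wounded ones in every experiment. The mean light minus dark difference was -0.23 in intact rosettes (-0.03, -0.33 and -0.33 by experiment) and 0.72 in wounded ones (1.08, 0.86 and 0.22 by experiment). Its intact levels were all below log2 4, so the sign in intact rosettes cannot be read. limma called neither difference, and its interaction of 0.96 was not called either. With the replicate block the difference in wounded rosettes was called (0.72, SE 0.18), while the intact difference and the interaction were not. The rule for the set used these means, so the call is a description.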

How the results depend on the processing

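The number of genes meeting the rule was 109 with a wound threshold of 1.5, 36 with 2.5 and 30 with a light limit of 0.5. With group medians in place of means it was 45, and 39 of these were among the 62. It ran from 34 to 72 when an array or an experiment was left out. The lowest values, 34 without experiment 1 and 38 without dark intact replicate 1, shared 28 and 34 genes with the 62. With an array left out, wound calls of the 62 stayed between 61 and 62 in the light (9.85% to 15.1% of tested probe sets). In the dark they stayed between 58 and 62 (4.89% to 7.98%). As the rule used these contrasts, nothing is read from the counts. With the 25S probe set as a covariate 36 of the 62 were called in the dark. The median change was then 2.86 and 1.83% of tested probe sets were called (8.12% without it). Light calls in intact rosettes (2 with all arrays, 23.2% of tested probe sets) ran from 0 to 17 with an array left out, the 17 without dark intact replicate 1. They were 5 with the replicate block (40.7%), 6 with the block and median centring (38.1%), 0 with no filter on dim probe sets (11.9%) and 1 with the 25S covariate (5.73%). Light calls in wounded rosettes numbered 1 with all arrays (12.3%). With an array left out they ran from 0 to 4 (6.91% to 13.3%), the 4 without dark intact replicate 2. They were 5 with the replicate block (28.9%), 5 with the block and centring (28%), 2 with centring (11.9%), 0 with no filter (5.95%), 2 with a filter at log2 5 (13.3%) and 2 with the 25S covariate (11.4%). The block changed no wound call of the 62. With an array left out, the median changes of the 62 ran from 2.86 to 3.19 for wounding in the light, 2.27 to 2.92 in the dark, -0.63 to -0.09 for light in intact and 0.06 to 0.21 in wounded rosettes, and 0.15 to 0.67 for the interaction, which was 0.09 with the 25S covariate. The cause of these shifts was not tested. Of 528 recomputed wound changes of 33 named genes none changed sign and 10 moved by more than 1 SD, 8 of them without dark intact replicate 1. Dim intact levels limit the size of a change for 16 genes.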
